A study of Mus musculus with 7 samples.

Results

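The genes described here are 39 transcripts that mark macrophages and monocytes, the phagocytes that clear debris from skeletal muscle and shape its repair. They were chosen by symbol as lineage markers, with earlier results of these data known, so counts over them only describe the list. For each gene the feature of the highest mean over all arrays was taken. All 39 of the 39 listed genes were found among the 22180 genes with a feature of 1 symbol. Each of them had a single feature. RNA of whole skeletal muscle from C57BL/6 mice had been hybridised to 7 arrays (Affymetrix GeneChip Mouse Gene 2.0 ST, 1 colour). Young WT mice of 2 to 3 months gave 3 arrays, aged WT mice of 24 months gave 2 (replicates 2 and 3 in the labels) and aged MISR mice of 24 months gave 2 (replicates 1 and 2). MISR mice carry a transgene for the IκB super-repressor (ISR), a dominant inhibitor of NF-κB, under the muscle creatine kinase (MCK) promoter, which is active in muscle fibers. Macrophages do not use that promoter, so in these mice the inhibitor was placed in the fibers around the cells that make the transcripts described here. The methods give commercial colonies for the C57BL/6 mice and breeding in house for the MISR mice, while the paper compares young MISR mice with littermates. The source of the WT mice on the arrays is not stated, so colony and genotype cannot be told apart. Neither the muscle that was sampled nor the sex of the animals is stated in the labels or methods.

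Macrophages of resting muscle are mostly resident cells, which sit in the connective tissue and carry scavenger and lectin receptors such as CD206 and CD163. Monocytes from the blood enter after damage, and the macrophages they form first express inflammatory and damage-associated proteins before they take on a repair state. NF-κB in muscle fibers is known to drive the release of cytokines that call such cells in. For the comparison of both states, 11 genes were grouped as resident-type, 9 as inflammatory-type, and the remaining 19, which both states share, as shared.

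Signals are on the log2 scale after normalization by RMA (robust multi-array average), so a difference of 1 is a 2-fold change, and levels of different genes are not comparable with one another. Array medians over all features lay between 5.86 and 5.93. Of the 39 genes, 32 were at or above the array median in all 7 arrays, among them the defining markers Adgre1, Cd68 and Csf1r, 6 were so in some arrays, and Cd14 in none. A gene was tested when it reached the median in at least 2 arrays. That left 36 of the 39 within the 13364 genes tested, and Aif1, Cd14 and Siglec1 are given by their values alone. Clec10a passed only by its aged MISR arrays, and Ms4a6d by aged WT 2 and aged MISR 2. Muscle fiber markers were above the array median in every array (6 of 6), with a summed linear signal of 65947.4 to 67424.5 in young WT, 65823.3 to 65987.2 in aged WT muscle and 64295.5 to 66840.7 in aged MISR muscle.

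Macrophage genes lay higher in aged MISR muscle than in the muscle of WT mice of either age. Between aged and young WT muscle the direction depended on the aged WT array. In aged MISR against aged WT muscle 38 of the 39 genes had the higher mean, and the median difference of the 36 tested genes was 0.59, beside 0.013 over all 13364 genes. In 23 of the 39 both aged MISR arrays were above both aged WT arrays, where 20.3% of all tested genes had this order, and in none were both below (15.4% of all genes). Against young WT muscle 36 of the 39 genes were higher in aged MISR muscle, and in 23 both aged MISR arrays were above all young WT arrays (24.4% of all tested genes) and in none below (13.6%). An aged MISR array was the highest of all 7 in 35 of the 39 genes (42.1% of all genes). The median difference was 0.53, beside 0.039 over all genes. Between aged and young WT muscle the median difference was −0.07, beside 0.0077 over all genes, and 14 of the 39 genes were higher and 25 lower in aged muscle.

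Few of these differences passed the test of single genes (limma, Benjamini-Hochberg adjusted p under 0.05 over all genes tested). In aged MISR against young WT muscle 2 of the 36 genes were called, both of them higher, where 0.456% of all genes were called higher and 0.591% in either direction. At an unadjusted p under 0.05, 19 were higher and none lower there (11.8% and 6.97% of all genes). No gene was called in aged MISR against aged WT muscle, where 0.0524% of all genes were called. At an unadjusted p under 0.05, 22 of the 36 were higher there (8.08% of all genes) and none lower (4.09%). The 19 and the 22 both include Clec10a, which was tested only because its aged MISR arrays were high, so it lends these counts no support. A t-test that the study's methods name for other experiments, not for the arrays, was also made. In aged MISR against aged WT muscle 1 gene passed it at an unadjusted p under 0.05, Fcgr1, whose values hardly varied within groups. None was called between aged and young WT muscle either, where 0.18% of all genes were called (0.0973% higher and 0.0823% lower). At an unadjusted limma p under 0.05, 2 were higher and 1 lower in that comparison (9.26% and 6.41% of all genes). By that t-test 3 passed at the same threshold, Fcgr1, Folr2 and Retnla, all of them lower in aged WT muscle. How many of all genes passed that t-test unadjusted was not counted, so its counts have no share to be read against. The comparisons share arrays, so their values are not independent of one another. In tissue RNA, more macrophages, more RNA per macrophage and RNA of other cells that express some of these genes cannot be told apart.

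**Figure D1:**
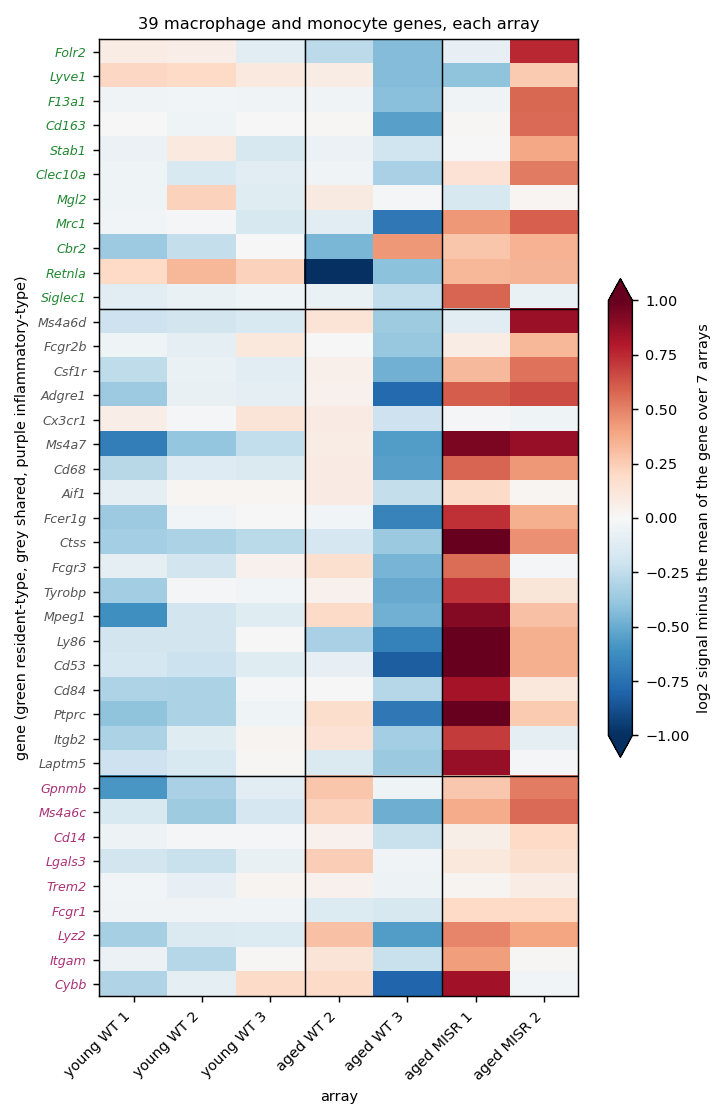
Signal of each of the 39 genes (rows, coloured by type) in each of the 7 arrays (columns), as the log2 difference from the mean of the gene over the arrays; black lines separate groups and types. The aged MISR columns hold most of the red cells and aged WT 3 most of the blue ones, and resident-type genes are reddest in aged MISR 2 while most shared genes are reddest in aged MISR 1.

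The 2 genes that rose in aged MISR against young WT muscle encode a lysosomal protease and a membrane protein of macrophages. Ctss encodes cathepsin S, which trims the invariant chain from MHC class II molecules in antigen-presenting cells. Its signal was 7.10, 7.12 and 7.17 in young WT 1, 2 and 3, 7.27 and 7.06 in aged WT 2 and 3, and 8.45 and 7.89 in aged MISR 1 and 2. The WT arrays of both ages overlapped within a narrow range, and both aged MISR arrays stood above all of them. Ctss was 2.06-fold higher in aged MISR than in young WT muscle (difference 1.04, SE 0.15, limma adjusted p = 0.046) and 2.00-fold higher than in aged WT muscle (difference 1.003, SE 0.17, limma adjusted p = 0.107), so that only the former passed the test.

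Ms4a7 encodes a membrane protein of the MS4A family that is found on macrophages of tissues. Its signal was 5.94, 6.24 and 6.38 in young WT 1, 2 and 3, 6.70 and 6.07 in aged WT 2 and 3, and 7.57 and 7.50 in aged MISR 1 and 2. The aged MISR arrays agreed closely, whereas the WT arrays spread widely and overlapped between the ages. The difference was 1.35 (SE 0.20, 2.55-fold, limma adjusted p = 0.045) against young WT and 1.15 (SE 0.22, 2.22-fold, adjusted p = 0.126) against aged WT muscle. Both calls were close to the threshold: with any single array left out, Ms4a7 had a limma adjusted p of 0.054 to 0.208, and Ctss one of 0.065 to 0.223 except without aged MISR 2 (0.021), where the single remaining aged MISR array took its spread from the other groups.

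Promoter sequences are shown for both called genes, for Mrc1 as the resident-type gene with the next largest difference after Retnla, and for Retnla as the gene with the lowest aged WT signal relative to young. PU.1, the transcription factor that directs the myeloid lineage, binds DNA around the core GAGGAA, and the capitals mark that core or its reverse complement. Each stretch runs from 250 bases before to 20 after the RefSeq start site (GRCm38.p6), in the direction of the gene. Ctss lies at chr3:95526536-95526805 (+ strand), Ms4a7 at chr19:11336127-11336396 (− strand), Mrc1 at chr2:14229164-14229433 (+ strand) and Retnla at chr16:48842359-48842628 (+ strand).
Ctss: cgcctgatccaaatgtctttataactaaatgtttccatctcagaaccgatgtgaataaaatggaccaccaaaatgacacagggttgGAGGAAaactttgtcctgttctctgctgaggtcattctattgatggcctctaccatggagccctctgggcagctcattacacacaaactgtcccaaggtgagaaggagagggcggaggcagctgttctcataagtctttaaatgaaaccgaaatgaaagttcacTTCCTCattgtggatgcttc
Ms4a7: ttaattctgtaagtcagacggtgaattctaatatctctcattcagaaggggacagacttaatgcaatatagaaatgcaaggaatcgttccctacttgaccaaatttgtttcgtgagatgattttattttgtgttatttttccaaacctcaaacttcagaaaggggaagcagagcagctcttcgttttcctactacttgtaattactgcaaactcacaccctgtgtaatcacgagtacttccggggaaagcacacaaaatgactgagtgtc
Mrc1: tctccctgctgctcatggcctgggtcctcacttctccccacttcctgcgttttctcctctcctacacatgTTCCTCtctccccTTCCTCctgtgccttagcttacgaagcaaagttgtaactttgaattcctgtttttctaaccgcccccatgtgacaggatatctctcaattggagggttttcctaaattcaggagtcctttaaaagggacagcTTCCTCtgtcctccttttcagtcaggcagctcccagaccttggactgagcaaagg
Retnla: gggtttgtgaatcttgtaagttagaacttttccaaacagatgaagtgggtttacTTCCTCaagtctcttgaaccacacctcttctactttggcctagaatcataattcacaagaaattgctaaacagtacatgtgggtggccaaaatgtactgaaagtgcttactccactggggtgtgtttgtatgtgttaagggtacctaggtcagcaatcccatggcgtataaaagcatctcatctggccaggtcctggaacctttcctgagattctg
Ctss held the core at bases −164 and 1 counted from the start site, Mrc1 at bases −180, −167 and −35 and Retnla at base −196. Ms4a7 held none in the stretch shown and a match at base 44, past its end. A window was given for 30 of the 39 genes, and GAGGAA, searched on both strands from 250 bases before to 50 after the first listed start site, was found in 19 of them (63.3%), beside 28.3% of the 27025 genes with a window. The longer form GAGGAAGT, which contains the core, was in 3 of the 30 (10.0%; Ctss, Cd53 and Retnla) and in 3.28% of all genes. An NF-κB motif of GGG, any 2 bases and TTTCC (both strands) was in 1 of the 30, Fcgr3 (3.33%), and in 1.62% of all genes. A match is a run of letters and not evidence of binding.

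Receptors for the factors that keep and place macrophages differed from each other. Csf1r, the receptor for the growth factor CSF1 on which most macrophages depend, had a signal of 7.52, 7.71 and 7.66 in young WT 1, 2 and 3, of 7.83 and 7.30 in aged WT 2 and 3, and of 8.10 and 8.32 in aged MISR 1 and 2. Both aged MISR arrays were above every WT array, with a difference from aged WT muscle of 0.65 (SE 0.17, limma adjusted p = 0.218). Cx3cr1, the fractalkine receptor of patrolling monocytes and of some resident macrophages, lay at 7.44, 7.35 and 7.50 in young WT, 7.45 and 7.16 in aged WT muscle and 7.36 and 7.33 in aged MISR muscle. Its groups overlapped in every comparison, with a difference from aged WT muscle of 0.03 (SE 0.11).

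The 7 lineage and lysosomal genes had means above those of aged WT muscle in aged MISR muscle, by 0.18 to 1.003, with a median of 0.74. The 0.18 was that of Aif1, which was not tested, and none of the other 6 passed that test. Adgre1, the surface receptor by which mouse macrophages are most often recognised, was at 6.63, 6.92 and 6.91 in young WT, 7.04 and 6.22 in aged WT muscle and 7.60 and 7.65 in aged MISR muscle. Aged WT 3 was the lowest array and both aged MISR arrays were the highest. For Adgre1 the difference from aged WT muscle was 0.99 (SE 0.24, limma adjusted p = 0.193).

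Cd68, a glycoprotein of the lysosomal membrane, followed the same order, with 7.50, 7.65 and 7.63 in young WT, 7.87 and 7.24 in aged WT muscle and 8.36 and 8.22 in aged MISR muscle. Lyz2, the lysozyme of macrophages and neutrophils, lay at 9.05, 9.24 and 9.25, at 9.68 and 8.82, and at 9.87 and 9.78 in the same order of arrays. The aged WT arrays enclosed the young ones for both genes, and both aged MISR arrays were above them. Cd68 differed by 0.74 (SE 0.19) and Lyz2 by 0.57 (SE 0.24) between aged MISR and aged WT muscle (limma adjusted p = 0.209 and 0.410). Mpeg1, which encodes the pore-forming perforin-2 of phagocytes, was at 5.59, 6.02 and 6.08 in young WT, 6.39 and 5.72 in aged WT muscle and 7.12 and 6.49 in aged MISR muscle. All young arrays were below both aged MISR arrays, with a difference of 0.91 (SE 0.26, limma adjusted p = 0.155). Laptm5, a lysosomal membrane protein of blood cells, was at 7.79 in aged MISR 1 and at 6.90 in aged MISR 2, the latter inside the young WT range of 6.71 to 6.93. Aif1, the actin-binding protein IBA1, had its highest value of 6.01 in aged MISR 1.

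Of the MS4A genes, which lie next to each other in the genome and resemble each other, Ms4a6c and Ms4a6d are close paralogs whose probes may take up each other's RNA. Ms4a6c, seen mainly in monocyte-derived cells, was at 5.86, 5.66 and 5.85 in young WT, 6.24 and 5.53 in aged WT muscle and 6.39 and 6.58 in aged MISR muscle. Ms4a6d was at 5.72, 5.74 and 5.77, at 6.06 and 5.57, and at 5.82 and 6.79 in the same order. Ms4a6d was thus high in aged MISR 2 and near the WT arrays in aged MISR 1, while both arrays were high for Ms4a6c. The differences from aged WT muscle were 0.60 (SE 0.21) for Ms4a6c and 0.49 (SE 0.30) for Ms4a6d, with limma adjusted p = 0.343 and 0.550.

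Fc receptors, which bind antibody-coated particles, and their adaptors had means in aged MISR muscle that exceeded those in aged WT muscle by 0.05 to 0.89. Fcer1g, the signalling chain shared by several Fc receptors, was at 7.52, 7.86 and 7.88 in young WT, 7.86 and 7.22 in aged WT muscle and 8.62 and 8.24 in aged MISR muscle. Both aged MISR arrays were above all others, with a difference from aged WT muscle of 0.89 (SE 0.23, limma adjusted p = 0.216). Tyrobp, the adaptor DAP12 that serves TREM2 among others, was at 8.55 and 7.95 in aged MISR 1 and 2 and at 7.33 to 7.87 in the WT arrays.

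Fcgr1, the high-affinity IgG receptor of inflammatory macrophages, had 1 value of 6.28 in all young WT arrays, 6.18 and 6.16 in aged WT and 6.51 in both aged MISR arrays. Its groups did not overlap in any comparison. The SD was 0 in young WT, 0.016 in aged WT (the smallest of any member there) and 0.00015 in aged MISR muscle. With a spread this near 0 even a small difference passes a t-test. Whether such equal values reflect the animals or the summary of the probes was not tested. The difference of 0.34 (SE 0.061) between aged MISR and aged WT muscle did not pass (limma adjusted p = 0.118). The inhibitory receptor gene Fcgr2b was at 7.55, 7.50 and 7.70 in young WT, 7.60 and 7.22 in aged WT muscle and 7.67 and 7.93 in aged MISR muscle. Its activating relative Fcgr3 was at 6.60, 6.52 and 6.74, at 6.86 and 6.23, and at 7.26 and 6.68 in the same order. Their highest arrays were thus different aged MISR arrays, and young WT and aged MISR values overlapped for both genes. Trem2, a lipid receptor of macrophages near damaged tissue, stayed between 6.25 and 6.40 in all 7 arrays.

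The 5 genes of adhesion and leukocyte surface proteins, which neutrophils and lymphocytes also express, had the highest signal in aged MISR 1 in 5 of 5 cases. Cd53, a tetraspanin of leukocytes, was at 7.46, 7.42 and 7.52 in young WT, 7.56 and 6.81 in aged WT muscle and 8.70 and 7.999 in aged MISR muscle. Its difference from aged WT muscle was 1.16 (SE 0.28, 2.24-fold, limma adjusted p = 0.192), with no overlap between the groups. Itgam, the integrin chain CD11b, was at 6.39, 6.16 and 6.46 in young WT, 6.57 and 6.22 in aged WT muscle and 6.86 and 6.46 in aged MISR muscle. Itgam had overlapping groups in every comparison and a difference from aged WT muscle of 0.26 (SE 0.17). Ptprc, the leukocyte antigen CD45, was at 8.33 in aged MISR 1 and 7.55 in aged MISR 2, against 6.58 to 7.47 in the WT arrays. Itgb2, the integrin chain that pairs with CD11b, was at 8.47 and 7.68, against 7.43 to 7.92, and Cd84, a receptor of the SLAM family, at 7.16 and 6.44, against 6.01 to 6.33. Aged MISR 2 thus lay inside the WT range for Itgb2 and above it for Ptprc and Cd84.

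Ly86 and Cybb, of the endotoxin-sensing and oxidase genes, were also highest in aged MISR 1. Ly86 encodes MD-1, a secreted protein that pairs with a relative of the endotoxin receptor on the cell surface. It was at 7.17, 7.18 and 7.36 in young WT, 7.04 and 6.69 in aged WT muscle and 8.37 and 7.71 in aged MISR muscle. The 3 groups did not overlap, with aged WT the lowest and aged MISR the highest. The difference of 1.18 (SE 0.21, 2.26-fold) from aged WT muscle was the largest among the members and did not pass (limma adjusted p = 0.123). Cybb, the catalytic chain of the phagocyte oxidase, was at 8.25, 8.46 and 8.74, at 8.74 and 7.76, and at 9.39 and 8.53 in the same order of arrays, so that aged MISR 2 lay inside the WT range. Cd14, the endotoxin co-receptor, lay between 5.21 and 5.62, below the array median in all arrays.

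**Figure D2:**
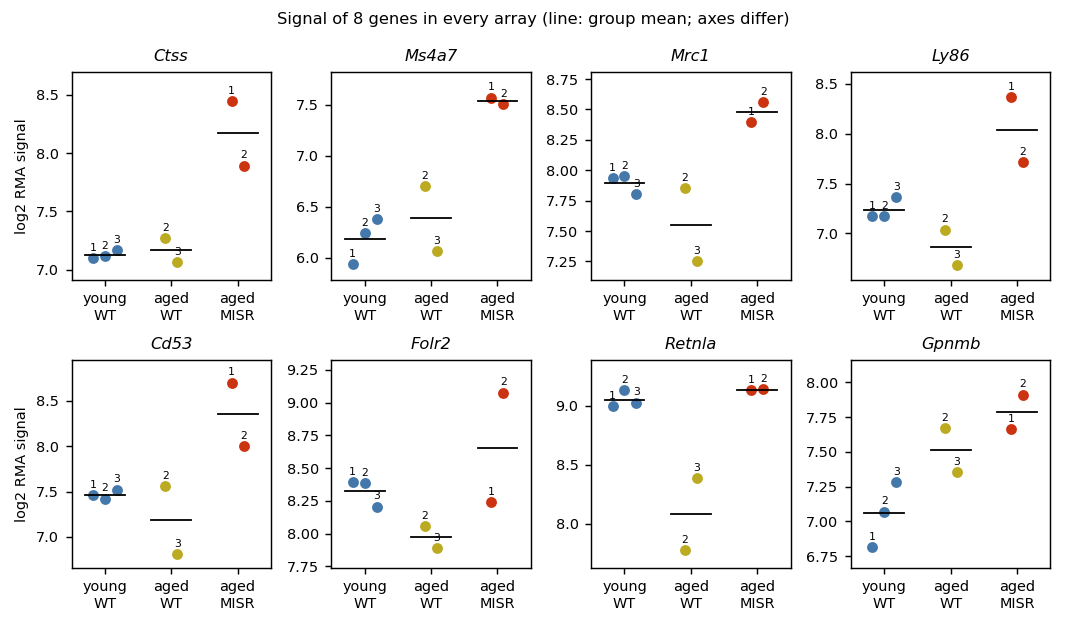
RMA signal (log2, vertical axes that differ between panels) of Ctss, Ms4a7, Mrc1, Ly86, Cd53, Folr2, Retnla and Gpnmb in young WT, aged WT and aged MISR muscle; points are arrays with their replicate number and lines are group means. Both aged MISR points lie above all others for Ctss, Ms4a7, Mrc1, Ly86 and Cd53, while Folr2 is high in aged MISR 2 alone and Retnla is low in both aged WT arrays.

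Scavenger, lectin and uptake receptors, all 8 of them resident-type genes, had higher signal in aged MISR 2 than in aged MISR 1 in 7 of 8 cases. Mrc1, the mannose receptor CD206 of resident macrophages, was at 7.94, 7.95 and 7.80 in young WT, 7.86 and 7.25 in aged WT muscle and 8.40 and 8.56 in aged MISR muscle. Both aged MISR arrays were above every WT array, with a difference from aged WT muscle of 0.92 (SE 0.18, 1.90-fold, limma adjusted p = 0.138). Folr2, the folate receptor beta of resident macrophages, was at 8.39, 8.38 and 8.21 in young WT, 8.05 and 7.89 in aged WT muscle and 8.24 and 9.08 in aged MISR muscle. Here aged MISR 1 lay among the young WT arrays and aged MISR 2 far above them. Cd163, which takes up haemoglobin bound to haptoglobin, showed the same split, with 6.63 in aged MISR 1, 7.19 in aged MISR 2 and 6.58 to 6.62 in young WT muscle.

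Lyve1, a hyaluronan receptor that lymphatic endothelium shares with perivascular macrophages, was at 8.41, 8.40 and 8.31 in young WT, 8.28 and 7.77 in aged WT muscle and 7.80 and 8.47 in aged MISR muscle. It was lower in aged MISR than in young WT muscle by mean (difference −0.24, SE 0.21), with overlapping arrays. Other markers of lymphatic endothelium summed to a linear signal of 490 to 518 in young WT, 417 to 466 in aged WT muscle and 463 to 509 in aged MISR muscle (4 of 5 measured), and their part in the Lyve1 values was not tested. Clec10a and Mgl2 encode closely related galactose-binding lectins. Clec10a was at 5.87, 5.76 and 5.80 in young WT, 5.88 and 5.59 in aged WT muscle and 6.06 and 6.43 in aged MISR muscle, and Mgl2 at 6.45, 6.72 and 6.37, at 6.58 and 6.47, and at 6.33 and 6.52 in the same order. Clec10a was above the WT arrays in both aged MISR arrays, whereas Mgl2 overlapped between all groups and was the sole member with a mean in aged MISR muscle below that in aged WT muscle (difference −0.10, SE 0.13). Siglec1, the sialic acid receptor of lymph node and marrow macrophages, was the exception among the resident-type genes, with 6.49 in aged MISR 1 and 5.66 to 5.86 in the other arrays. Stab1, the scavenger receptor stabilin, was at 8.14 in aged MISR 2 and at 7.55 to 7.85 elsewhere.

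The 3 resident-type genes for enzymes and secreted proteins did not follow each other. Retnla encodes RELMα, a protein that alternatively activated macrophages secrete and that fat tissue also expresses. Its signal was 8.99, 9.13 and 9.02 in young WT, 7.78 and 8.39 in aged WT muscle and 9.13 and 9.14 in aged MISR muscle, so that both aged WT arrays were below all others and the aged MISR arrays were level with the highest young WT array. Retnla was 1.96-fold lower in aged than in young WT muscle (difference −0.97, SE 0.16, limma adjusted p = 0.073) and in aged MISR muscle 2.07-fold higher than in aged WT muscle (difference 1.05, SE 0.18, limma adjusted p = 0.107). Neither difference passed in this fit, and the former passed over the same 7 arrays with a trended and robust variance prior (limma adjusted p = 0.047) and with array weights (0.042). Without aged WT 3 the differences were −1.27 and 1.35 (adjusted p = 0.036 and 0.041), but aged WT 2 then stood alone for its group, and its spread was taken from the other groups.

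Cbr2, a carbonyl reductase of resident macrophages, was at 9.20, 9.32 and 9.57 in young WT, 9.11 and 10.00 in aged WT muscle and 9.84 and 9.91 in aged MISR muscle. The aged WT arrays were its lowest and its highest, and its difference of 0.33 (SE 0.26) from aged MISR muscle lay within that spread. F13a1, the clotting factor chain that crosslinks fibrin and is made by resident macrophages and platelets, was at 7.98 to 7.99 in the young WT arrays, 7.99 and 7.60 in aged WT muscle and 7.99 and 8.59 in aged MISR muscle. Only aged MISR 2 was above the young WT arrays by more than 0.01.

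Gpnmb and Lgals3, which macrophages express around damaged tissue and lipid, were the members with the largest higher mean in aged against young WT muscle. Gpnmb, a transmembrane glycoprotein, was at 6.82, 7.07 and 7.29 in young WT, 7.67 and 7.36 in aged WT muscle and 7.67 and 7.91 in aged MISR muscle. Lgals3, the lectin galectin-3, was at 7.36, 7.32 and 7.47, at 7.79 and 7.51, and at 7.65 and 7.71 in the same order. All 4 aged arrays were above all young ones for both genes, and the aged groups overlapped. Of the 39 genes these were the only 2 with both aged WT arrays above all young WT arrays (22% of all tested genes), and 5 had both below (15.7% of all genes), namely Fcgr1, Folr2, Lyve1, Retnla and Ly86. The differences of aged from young WT muscle were 0.46 (SE 0.16) for Gpnmb and 0.27 (SE 0.097) for Lgals3, with limma adjusted p = 0.243 and 0.262. In the same comparison Ly86 was at −0.37 (SE 0.19), Folr2 at −0.36 (SE 0.22) and Ms4a7 at 0.20 (SE 0.20).

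**Figure D3:**
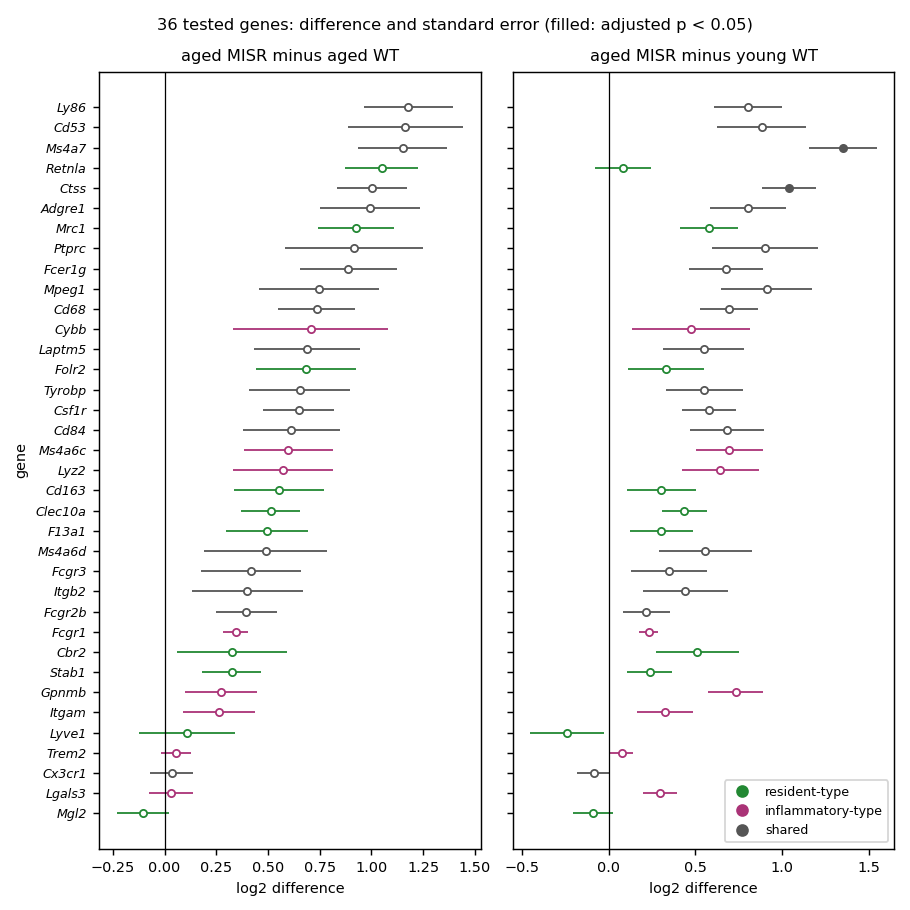
Difference of means (log2, horizontal axis; bars are standard errors of the limma fit) of the 36 tested genes, in aged MISR against aged WT (left) and against young WT muscle (right), coloured by type. Mgl2 alone lies below 0 on the left, and the filled points on the right are Ctss and Ms4a7, the 2 genes that passed the test.

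Resident-type and inflammatory-type genes were set against each other array by array, as the median of the log2 deviations of each gene from its own mean. For the 11 resident-type genes this median was −0.03, −0.01 and −0.04 in young WT 1, 2 and 3, −0.06 and −0.41 in aged WT 2 and 3, and 0.01 and 0.39 in aged MISR 1 and 2. For the 9 inflammatory-type genes it was −0.15, −0.15 and −0.03 in young WT, 0.19 and −0.22 in aged WT muscle and 0.27 and 0.20 in aged MISR muscle. The resident-type medians of the young WT arrays were close together and those of both aged groups spread, whereas the inflammatory-type medians spread in aged WT muscle and lay close in aged MISR muscle. Single inflammatory-type genes still split, with 6 higher in aged MISR 2 and 3 in aged MISR 1. Aged MISR 2 less aged MISR 1 ran from −0.86 for Cybb to 0.25 for Gpnmb. The resident-type median exceeded the inflammatory-type median by 0.12, 0.14 and −0.01 in young WT 1, 2 and 3 and by −0.25 and −0.19 in aged WT 2 and 3. In aged MISR muscle the value was −0.26 in replicate 1 and 0.19 in replicate 2, so that the aged MISR arrays lay on opposite sides of the young ones while both aged WT arrays were below them. By difference of group means, the 10 tested resident-type genes had a median of −0.22 and the 8 tested inflammatory-type genes one of 0.07 in aged against young WT muscle. For aged MISR muscle the medians were 0.50 and 0.31 against aged WT and 0.30 and 0.40 against young WT muscle. The 18 tested shared genes had the highest medians in aged MISR muscle, at 0.71 against aged WT and 0.68 against young WT muscle.

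The balance between both types in aged MISR muscle depended on the array. The resident-type median less the inflammatory-type median was 0.20 in aged MISR against aged WT muscle. It was −0.14 without aged MISR 2 and 0.49 without aged MISR 1. Against young WT muscle it was −0.10 with all arrays, −0.54 without aged MISR 2 and 0.27 without aged MISR 1. In aged against young WT muscle it was −0.29, and stayed between −0.36 and −0.24 when any single array was left out. No test was made on these medians, since the genes and their types were chosen with earlier results of these data known.

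**Figure D4:**
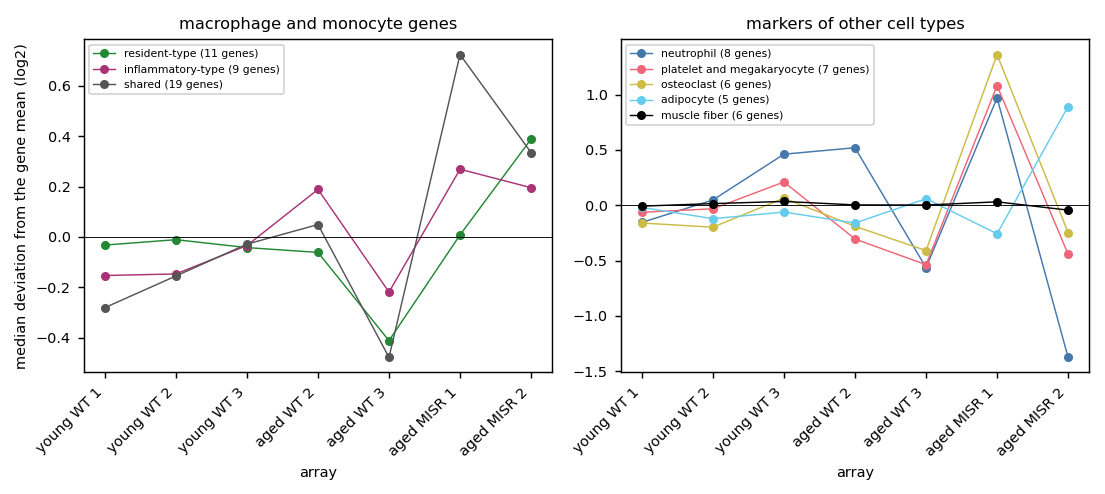
Median deviation of a list's genes from their own means over 7 arrays (log2, vertical axis) in each array (horizontal axis), for the 3 types of macrophage genes (left) and for markers of other cell types (right); lines only link the points of a list. Aged WT 3 is the lowest array for all 3 macrophage types, aged MISR 1 stands high for shared genes at 0.72 with neutrophil, platelet and osteoclast markers, and aged MISR 2 is highest for resident-type genes at 0.39 and for adipocyte markers.

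The arrays within each aged group differed more than the young WT arrays did. Over the 39 genes the median range of the 3 young WT arrays was 0.19. Aged WT 3 was below aged WT 2 in 37 of the 39 genes (45% of all tested genes), by a median of 0.38, with Cbr2 and Retnla as the exceptions, and was the lowest of all 7 arrays in 29 (11% of all genes). With aged WT 3 left out, the median difference of aged MISR from aged WT muscle was 0.35 in place of 0.59, and that of aged from young WT muscle 0.12 in place of −0.07. Without aged WT 2 these medians were 0.77 and −0.33. The direction of the aged MISR difference was thus the same with either aged WT array, and that of the aging difference was not.

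Aged MISR 1 and 2 were each the highest array for a different set of genes. Aged MISR 1 was the highest in 18 of the 39 genes (23.6% of all tested genes) and aged MISR 2 in 17 (18.5% of all genes), and aged MISR 2 was above aged MISR 1 in 20 (47.3% of all genes). Among the 19 shared genes aged MISR 1 was the highest in 14 and aged MISR 2 in 4, with a median difference of aged MISR 2 from aged MISR 1 of −0.55. Among the 11 resident-type genes aged MISR 1 was the highest in 1, Siglec1, and aged MISR 2 in 8, and the median difference was 0.37. For the 9 inflammatory-type genes the counts were 3 and 5, with a median difference of 0.05. The widest gaps were those of Laptm5 (−0.89), Cybb (−0.86) and Itgb2 (−0.79) on the side of aged MISR 1, and of Ms4a6d (0.97), Folr2 (0.84) and Lyve1 (0.67) on the side of aged MISR 2.

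**Figure D5:**
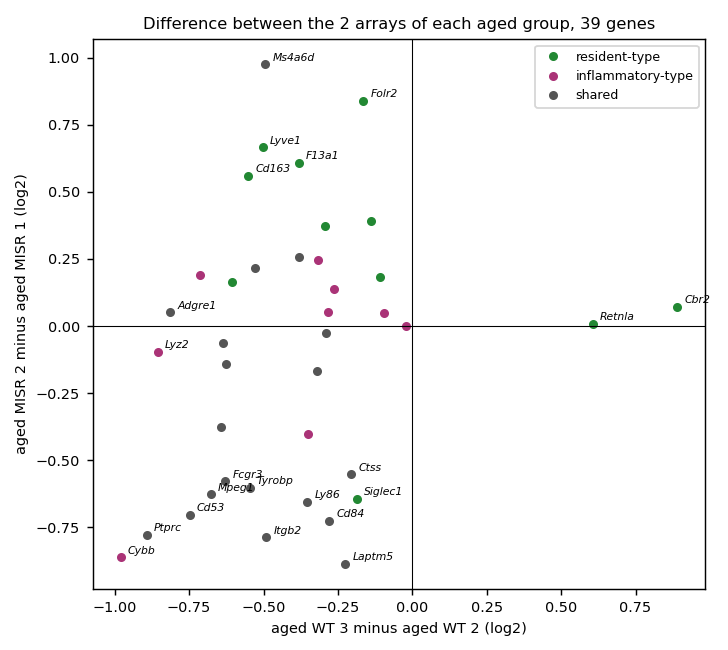
Difference between the arrays of the aged WT group (replicate 3 minus 2, horizontal axis) and of the aged MISR group (replicate 2 minus 1, vertical axis) in log2 signal, 1 point for each of the 39 genes, coloured by type. All points but Retnla and Cbr2 lie left of 0, and resident-type points lie at or above 0 on the vertical axis except Siglec1, while the leukocyte genes lie below it.

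Markers of several other cell types were highest in 1 of the aged MISR arrays, and those of others were mostly not. T and NK cell markers were highest in aged MISR 1 in 3 of 7 cases and in aged MISR 2 in 0. For dendritic cell markers these counts were 2 and 0 of 6, and for markers of lymphatic endothelium 0 and 1 of 4. Neutrophil markers were highest in aged MISR 1 in 7 of 8 cases, and their summed linear signal was 2426 there and 497 in aged MISR 2, beside 869 to 1922 in aged WT and 1226 to 1941 in young WT muscle. Platelet and megakaryocyte markers were highest in aged MISR 1 in 7 of 7 (summed signal 8309 there, 1637 in aged MISR 2, 1477 to 2056 in aged WT and 2586 to 4014 in young WT muscle). Osteoclast markers were so in 5 of 6 (1619 in aged MISR 1, 548 in aged MISR 2, 474 to 548 in aged WT and 561 to 667 in young WT muscle). Aged MISR 1 was thus high in markers of marrow and bone as well as in the leukocyte genes of the list, several of which neutrophils, platelets or osteoclasts express too. B cell markers were also highest in aged MISR 1 (4 of 4; 512 there, 278 in aged MISR 2, 237 to 239 in aged WT and 275 to 308 in young WT muscle), as were plasma cell markers (4 of 4; 2620, 1862, 1759 to 1830 and 1505 to 1601 in the same order). The plasma cell marker Jchain, the joining chain of secreted immunoglobulins, was high in both aged MISR arrays, with 9.59 and 8.44 against 5.55 to 6.06 in the WT arrays, and passed the test against aged WT (difference 3.42, SE 0.33, limma adjusted p = 0.035) and young WT muscle (3.18, SE 0.30, adjusted p = 0.021). Xbp1 of the same list, which weighs most in its sum, was at 10.70 and 10.40 in aged MISR 1 and 2. In aged WT 2 and 3 Xbp1 was at 10.69 and 10.61. Tnfrsf17 of that list was below the array median on every array. Aged MISR 2 had the highest values of adipocyte markers in 5 of 5 (4633 there, 2695 in aged MISR 1, 2734 to 2874 in aged WT and 2946 to 3209 in young WT muscle) and of mast cell markers in 5 of 6 (652, 394, 293 to 349 and 329 to 344 in the same order). The part of these cells in the macrophage values was not tested.

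Other genes of the macrophage programme were read from 4 lists of 76 genes, of which 60 were tested, and none was called in any of the 3 comparisons (0.18%, 0.0524% and 0.591% of all genes). In aged MISR against aged WT muscle 44 of the 60 had the higher and 16 the lower mean (54.1% of all genes were higher). Against young WT muscle 51 were higher and 9 lower (60.7% of all genes higher), and in aged against young WT muscle 32 were higher and 28 lower (52.2% higher). The lists had medians in aged MISR against aged WT muscle of 0.40 for 17 phagocytic and scavenger receptors, 0.30 for 11 growth factors and chemokines, 0.29 for 20 signalling and motility genes and 0.03 for 12 transcription factors.

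C1qb, a chain of the complement recognition protein that tissue macrophages secrete, was at 8.07, 8.12 and 8.28 in young WT, 8.44 and 7.48 in aged WT muscle and 8.89 and 8.999 in aged MISR muscle. The chemokine gene Ccl8 was at 5.80, 6.39 and 6.31, at 6.53 and 6.07, and at 7.05 and 7.15 in the same order. Both genes had similar values in the aged MISR arrays, above every WT array, and differed from aged WT muscle by 0.98 (SE 0.27) and 0.80 (SE 0.22), with limma adjusted p = 0.226 and 0.224. Ccl9, a chemokine of the same family, was at 8.36 and 8.28 in aged MISR and 7.39 to 7.89 in the WT arrays (difference 0.76, SE 0.13, adjusted p = 0.113).

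Plek and Lcp2, signalling proteins shared with platelets, were at 8.83 and 8.85 in aged MISR 1 and at 7.09 and 7.81 in aged MISR 2. Both were thus high in aged MISR 1 alone. Dock2, which drives the migration of leukocytes, was at 7.53 and 7.11 in aged MISR 1 and 2, both above the WT range of 6.43 to 6.71 (difference from aged WT muscle 0.80, SE 0.15, limma adjusted p = 0.130). Cd209g, a lectin receptor gene, ran the other way, with 5.99 in aged MISR 1 and 7.16 in aged MISR 2. Spi1, which encodes PU.1, was at 6.76, 6.58 and 6.76 in young WT, 6.84 and 6.56 in aged WT muscle and 7.19 and 6.83 in aged MISR muscle. Aged MISR 2 was within the WT range of Spi1, and the difference from aged WT muscle was 0.31 (SE 0.14, limma adjusted p = 0.451). Nr4a1, an orphan nuclear receptor that patrolling monocytes need and that muscle fibers also express, was at 11.31, 11.37 and 11.21 in young WT, 10.92 and 10.82 in aged WT muscle and 11.31 and 11.48 in aged MISR muscle. Its aged WT arrays were below all others, as for Retnla, with differences of −0.43 (SE 0.084) from young WT and 0.52 (SE 0.092) for aged MISR against aged WT muscle that did not pass (limma adjusted p = 0.104 and 0.118).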

How the data were processed

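Total RNA of whole skeletal muscle was labelled and hybridised by the authors to 1-colour gene arrays, 1 array per mouse sample. The deposited values are log2 signals that the authors normalized together by RMA, and neither the version of RMA nor the release of the annotation is stated in the labels or methods. All 7 arrays were used. Of 41345 features, 23521 had 1 symbol in the platform table, 1820 had several and were left out with the 16004 that were not listed. For each gene the feature with the highest mean was kept. Genes whose signal reached the median of the array in 2 or more arrays (13364) were compared in 1 fit of limma 3.58.1 in R 4.3.3, with 4 residual and an estimated 3.13 prior degrees of freedom, with Benjamini-Hochberg adjustment of the p-values over all of them. The steps were tested on simulated data. The members, the types, the roles and all lists were chosen with earlier results of these data known, so no list was tested as a set. Values in every array were given for called members, the extremes of each comparison and of each role, close paralogs and Cd68 and Lyz2, and genes outside that rule (among them Adgre1, Tyrobp, Ptprc, Laptm5, Cd163, F13a1, Stab1 and Siglec1) were chosen after their values were seen. Of each list of related genes, those shown are from the 3 with the largest difference between aged MISR and aged WT muscle. Motifs were searched in RefSeq promoter windows (GRCm38.p6). The number of arrays limits the precision, and the labels call them biological replicates. Alternatives were a second quantile normalization, centring on array medians, no or a stricter signal filter (60th percentile), averaging a gene's features, each array left out, the replicate number as a block, a trended and robust variance prior, array weights, fitting the groups of a comparison alone, a threshold of 0.1 for the adjusted p, the t-test of the study's methods and, chosen after seeing the data, leaving out aged WT 3 and aged MISR 1 together.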

Additional observations from a re-analysis of the deposited data

How the results depend on the processing

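The number of arrays limited every result: 2 arrays in each aged group, which differed from each other, left few calls that held under other settings. Wherever an aged array was left out, its group kept 1 array, whose spread was taken from the other groups. In aged against young WT muscle no macrophage gene was called in the fit as reported (24 of all 13364 genes were). Retnla alone was called with the trended and robust prior (88 of all genes) or with array weights (118 of all genes). Retnla alone also passed at an adjusted p under 0.1, and 3 genes by the t-test of the study's methods at an unadjusted p under 0.05. No count over all genes was made at either threshold. With 1 array left out the median difference ranged from −0.33 to 0.12. Against aged WT muscle the count of 0 in aged MISR muscle became 1 by that t-test unadjusted. With 1 array left out the median difference ranged from 0.35 to 0.77, and the resident-type less inflammatory-type median from −0.14 to 0.49.

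The 2 calls of aged MISR against young WT muscle became 0 after a second quantile normalization, with no signal filter, with array weights, when the groups compared were fitted alone and with the replicate block. The t-test gave 1 after Benjamini-Hochberg adjustment (Fcgr1, whose young WT values were identical), where 6 of all 13364 genes were called. Unadjusted it gave 14, for which all genes were not counted. With 1 array left out the count ranged from 0 to 4 (Cd84, Ctss, Laptm5 and Ly86 without aged MISR 2), and the resident-type less inflammatory-type median from −0.54 to 0.27. With aged WT 3 and aged MISR 1 left out together, the median differences were 0.14 in aged against young WT muscle and 0.33 in aged MISR against aged WT muscle, no gene was called against young WT muscle (0), and the resident-type less inflammatory-type medians of aged MISR muscle were 0.54 against aged WT and 0.27 against young WT muscle.

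Some members changed sign. Between aged MISR and aged WT muscle, Lgals3 was at −0.0048 after the second quantile normalization, at −0.11 to 0.17 with 1 array left out and at −0.085 with both left out, and Cx3cr1 at −0.11 to 0.18 and −0.12. With both left out Cybb was at −0.21 and Itgam at −0.11, and Cbr2 ranged from −0.12 to 0.77 with 1 array left out. Against young WT muscle Lyve1 ranged from −0.57 to 0.093 (0.093 with both left out) and Mgl2 from −0.18 to 0.012 (0.00075), and in aged against young WT muscle Ms4a7 ranged from −0.12 to 0.52. Values of named members under the alternatives kept their direction and side of the threshold in 518 cases. In 27 they no longer passed, in 7 they newly passed and in 14 they changed sign. Only Ctss and Ms4a7, the 2 genes called against young WT muscle, had a call to lose, and all 27 losses were theirs. Nearly all of the 518 were differences that passed neither as reported nor under the alternative. The 518 thus say little about the stability of the 2 calls. The causes of these changes were not tested. Same-numbered arrays correlated at −0.22 to −0.01 in their deviations from the group means. With 2 arrays in a group these deviations mirror each other, so the values cannot decide whether the numbers pair samples. The replicate block called 0 macrophage genes in each comparison.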
